A study of Rattus norvegicus with 54 samples.

Results

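Heat-shock and cold-inducible genes were followed in the rat heart over the day. The set holds 9 genes out of the 10257 entries of the deposited expression table: the heat-shock chaperone genes Hspa8, Hsp90aa1, Hsph1, Dnajb1, Hspa4, Hspd1 and Hspe1, and the cold-inducible genes Cirbp and Rbm3. They were chosen by name, and all 9 were present. Male Wistar rats, 7 to 8 weeks old at the start, lived alone under 12 h of light and 12 h of dark for 5 weeks and belonged to 3 groups of 18. C rats had food at all times and did no work. W rats did shift work, that is, they were kept in a slowly turning drum for 8 h of the light phase, from ZT2 to ZT10 (ZT, zeitgeber time, hours after lights on), from Monday to Friday, with food at all times. WRF rats did the same work but had no food while they worked. All rats were killed on a Saturday, a day without work, at ZT1, ZT5, ZT9, ZT13, ZT17 or ZT21, 3 rats per group and time. Whole hearts, atria and ventricles together, gave polyA RNA-seq libraries, and levels are in fpkm (fragments mapped to a transcript, scaled to its length and to the size of the library).

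Heat-shock chaperones fold new or damaged proteins. Their genes are switched on by the transcription factor HSF1, which binds repeated GAA units in their promoters when cells are warm or stressed, and several follow the daily rise of body temperature, which in rats falls in the dark, active phase. Cirbp and Rbm3 encode RNA-binding proteins whose transcripts accumulate when temperature drops, so their levels usually run opposite to those of the heat-shock genes. The comparisons asked whether this daily order of heat and cold transcripts, and their overall levels, differed between rats that did or did not do shift work and between workers with or without food at work.

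The promoters are shown first, because most of the heat-shock genes carry the units that HSF1 binds. RefSeq windows (GRCr8 assembly) of 250 bases before to 50 bases after the start were found by symbol for 8 of the 9 genes, all but Hsp90aa1. They were searched for 2 paired heat-shock units, GAANNTTC and TTCNNGAA, each of which reads the same on both strands, and for the cold-response octamer TCCCCGCC described upstream of Cirbp, on both strands. At least 1 unit pair occurred in 5 of the 6 heat-shock windows (Hspa8, Hsph1, Dnajb1, Hspd1 and Hspe1, but not Hspa4) and in 15.9% of all 33469 windows of this length. The separate shares were 8.59% for GAANNTTC and 8.77% for TTCNNGAA. Both pairs overlapped to give 3 units in a row in 4 of the heat-shock windows, against 0.798% of all windows. In the stretches below, which end 1 base before the start unless another position is given, capitals mark these unit pairs.
Hspa8, chr8:50080374-50080513, plus strand: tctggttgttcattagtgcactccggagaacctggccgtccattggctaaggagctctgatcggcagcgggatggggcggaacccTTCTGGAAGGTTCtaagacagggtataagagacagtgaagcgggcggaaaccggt
Hsph1, chr12:10427228-10427367, plus strand: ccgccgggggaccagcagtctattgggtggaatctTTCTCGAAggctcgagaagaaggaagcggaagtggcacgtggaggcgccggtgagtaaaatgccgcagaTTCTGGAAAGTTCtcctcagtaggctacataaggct
Dnajb1, chr19:41431142-41431281, minus strand: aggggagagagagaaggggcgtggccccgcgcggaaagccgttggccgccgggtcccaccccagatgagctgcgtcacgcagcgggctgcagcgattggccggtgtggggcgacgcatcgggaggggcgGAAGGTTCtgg
Hspe1, chr9:64084187-64084326, plus strand: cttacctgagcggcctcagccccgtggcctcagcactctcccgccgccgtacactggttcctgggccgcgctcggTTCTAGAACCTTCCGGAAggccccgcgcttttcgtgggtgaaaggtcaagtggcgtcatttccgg

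Hspd1 and Hspe1, which encode the large and the small subunit of the mitochondrial chaperonin, lie head to head and share this control region. The element of 18 bases at chr9:64084262-64084279 begins at position -65 from the start of Hspe1 and, on the other strand, at -242 from the start listed for Hspd1. The Hspd1 stretch begins at position -250 and ends at -121.
Hspd1, chr9:64084158-64084287, minus strand: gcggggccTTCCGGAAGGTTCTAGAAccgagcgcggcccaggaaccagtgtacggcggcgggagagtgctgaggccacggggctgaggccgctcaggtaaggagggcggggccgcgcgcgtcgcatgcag
The windows of Cirbp and Rbm3 held neither unit pair. So did that of Hspa4, and most windows of the table. The cold octamer occurred in the Cirbp window, in 0 of the 6 heat-shock windows and not in that of Rbm3, against 4.79% of all windows. It is in capitals in the stretch of Cirbp from -250 to -121.
Cirbp, chr7:10189596-10189725, minus strand: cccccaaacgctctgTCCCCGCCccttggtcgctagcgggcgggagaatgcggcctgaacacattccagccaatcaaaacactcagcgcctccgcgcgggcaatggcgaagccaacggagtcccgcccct
A match describes these letters in these windows and does not show that a factor binds there.

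Each group held 3 series of 6 rats, 1 per time, read from the order of the rats in the table. The hearts expressed the cardiomyocyte genes Ckm and Myh6 above 100 fpkm in all libraries but WRF51. Some libraries stood apart. WRF51 (ZT9) held 1419 fpkm of the lung transcript Ager, which was at most 6.69 fpkm in the others, with Myh6 at 52.1 fpkm. WRF62 (ZT5) held 105.8 fpkm of the T cell gene Cd3e, which otherwise did not exceed 4.35 fpkm in C and W rats. W21 (ZT17) held 1027 fpkm of the liver transcript Alb. In WRF51 and in WRF62, 6 of the 9 genes lay outside the range of the other WRF rats, and in W21 0 of 9 lay outside that of the other W rats. The number of hearts with over 100 fpkm of the atrial gene Myl7 was 6 for C, 7 for W and 9 for WRF rats. Its median and highest value were 16.5 and 16085 fpkm in C, 14.1 and 20489 fpkm in W and 385.5 and 23938 fpkm in WRF rats. The atrial genes Myl7, Sln, Nppa and Myl4 summed highest in C27 (ZT9), W17 (ZT1) and WRF44 (ZT17), at 55788, 62455 and 54998 fpkm. C27 held the highest C values of Hsph1, Hspa4, Cirbp and Rbm3. W17 held the highest W values of the same genes and of Dnajb1, and WRF44 the highest WRF value of Dnajb1. The part of lung or lymphoid tissue in the results was not tested beyond the values without WRF51, WRF62 and W21. That of atrial tissue was not tested. Hspa8 is listed with 2 further entries, and Hsp90aa1 with 1, that hold identical values; since a single alignment was kept per read, reads shared with near-identical copies make the levels of both uncertain.

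In C rats the transcripts of Hspa8 and Dnajb1 were higher in the dark and those of Cirbp and Rbm3 in the light (see the plot of the 9 genes by time). Hspa8 encodes the constitutive cytosolic HSP70. In the 3 C rats it read 117.9, 124.9 and 135.4 fpkm at ZT5 and 179.3, 205.5 and 217.2 fpkm at ZT17. The rats at these 2 times, which had the lowest and the highest mean, did not overlap. Times picked in this way favour such a gap, and how many of all genes show one was not counted. The fitted 24 h cosine peaked at ZT17.6 ± 0.74 h (SE, n = 18) with an amplitude of 21.9% ± 4.2 of the mean in harmonic regression (p = 0.000465, q = 0.0506 over all genes).

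**Figure D1:**
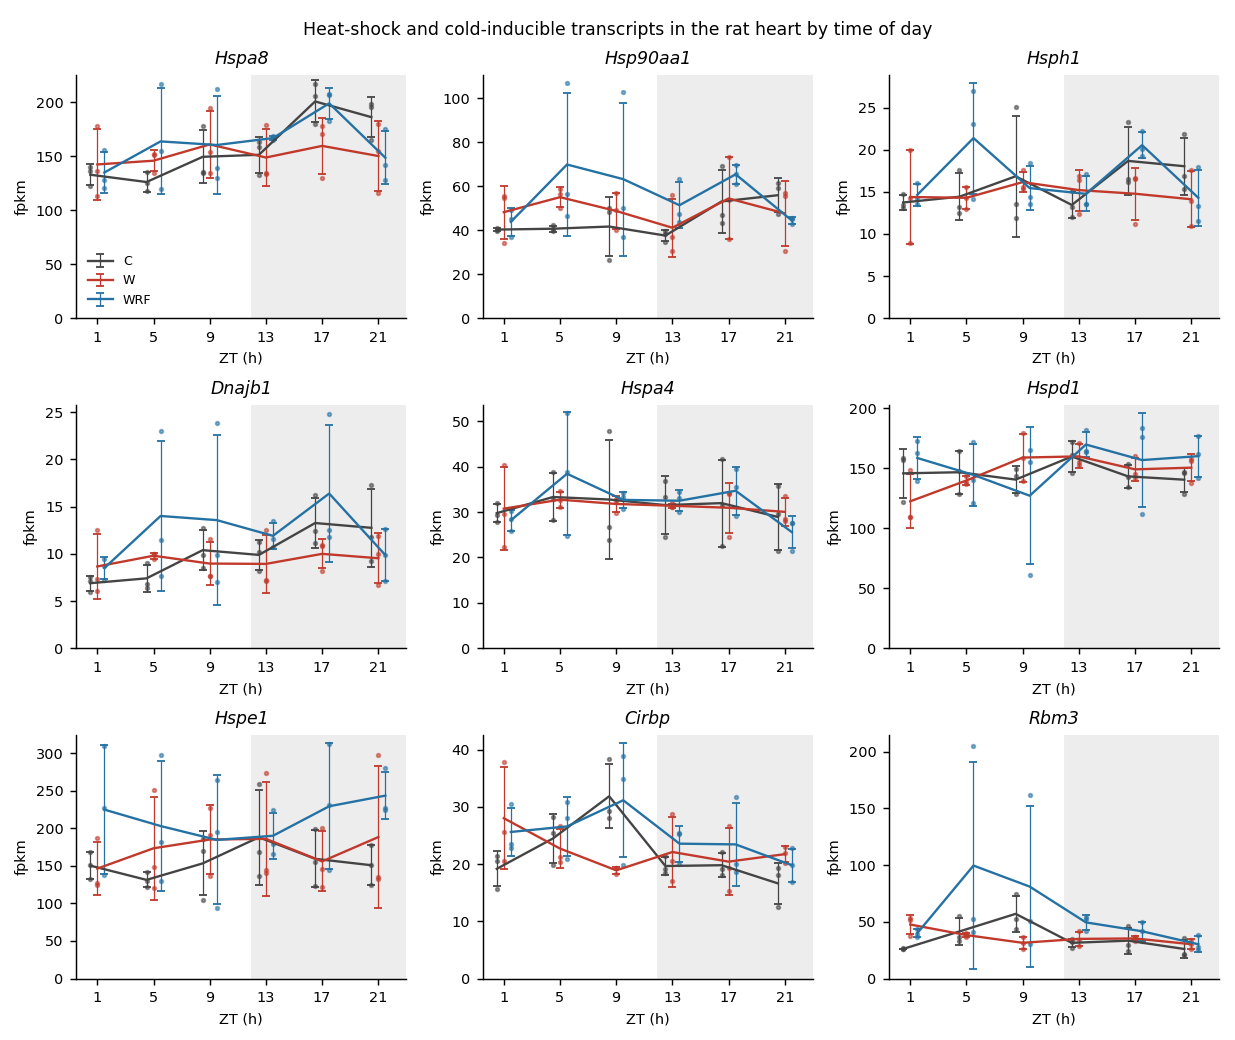
Level of each of the 9 genes (fpkm, vertical axis from 0) against time of day (ZT, h) in C, W and WRF rats. Points are rats, lines join the means of 3 rats, bars are SD and the dark phase is shaded. In C rats Hspa8 and Dnajb1 were highest at ZT17 and Cirbp and Rbm3 at ZT9, and the WRF bars of Rbm3 at ZT5 and ZT9 are long because of WRF62 and WRF51.

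Dnajb1 encodes the HSP40 partner that hands substrates to HSP70. In C rats it read 6.00, 7.12 and 7.56 fpkm at ZT1 and 11.1, 12.4 and 16.2 fpkm at ZT17, and all 9 C rats of the dark phase were above the median of the light phase. Its cosine peaked at ZT16.8 ± 1.1 h with an amplitude of 28.2% ± 8.5 of the mean (SE, harmonic regression, p = 0.0155, q = 0.525). Hsp90aa1, the stress-inducible cytosolic HSP90, had an amplitude of 17.4% ± 6.7 with a peak at ZT19.6 ± 1.5 h (p = 0.0625). Hsph1, an HSP110 that exchanges the nucleotide of HSP70, had an amplitude of 10.2% ± 8.3 (p = 0.487). For Hspa4, the other HSP110, and the chaperonin genes the amplitudes were likewise within 2 SE, at 5.74% ± 7.7 for Hspa4, 2.90% ± 3.3 for Hspd1 and 12.3% ± 7.6 for Hspe1.

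Cirbp and Rbm3 ran the other way in C rats. Cirbp read 28.1, 29.2 and 38.3 fpkm at ZT9 and 12.5, 18.1 and 19.3 fpkm at ZT21. Rbm3 read 44.1, 52.2 and 74.9 fpkm at ZT9 and 21.05, 21.6 and 35.5 fpkm at ZT21. Neither gene overlapped between these times, which were likewise picked as those of its highest and lowest mean. In the dark phase 0 of 9 C rats exceeded the light-phase median of Cirbp, against 1 of 9 for Rbm3. The cosine of Cirbp peaked at ZT8.23 ± 0.90 h with an amplitude of 27.6% ± 6.5 (SE, p = 0.00279, q = 0.185). That of Rbm3 peaked at ZT8.75 ± 1.1 h with an amplitude of 35.1% ± 10.4 (p = 0.0143, q = 0.508). The cold peaks thus fell within the hours of light in which the workers were at work on weekdays.

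No gene of the set passed q < 0.05 in C rats, where 0.848% of all genes did. At an unadjusted p under 0.05, 4 of the 9 passed in C rats (Hspa8, Dnajb1, Cirbp and Rbm3), against 5.91% of all genes. JTK, a rank test of rhythm, gave 4 at its own unadjusted p and 0 after adjustment. Its share of all genes was not taken. Hspa8 lay at the threshold. Its q was 0.0118 after median-of-ratios scaling, which also called Dnajb1 and Cirbp, and 0.165 after scaling to the total fpkm, which called Cirbp.

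In W rats Hspa8 and Dnajb1 had little daily swing over the group as a whole. Hspa8 read 112.9, 136.7 and 177.5 fpkm at ZT1 and 129.5, 170.8 and 178.3 fpkm at ZT17, so that the times overlapped. Its amplitude was 4.15% ± 5.5 of the mean (SE, n = 18, p = 0.760), and that of Dnajb1 was 2.38% ± 8.0 (p = 0.957). Cirbp kept an amplitude of 12.7% ± 7.7 with a peak at ZT0.79 ± 2.3 h (p = 0.290) and Rbm3 one of 12.8% ± 6.3 with a peak at ZT2.01 ± 1.9 h (p = 0.163). Of the 9 W rats of the dark phase, 1 exceeded the light-phase median of Rbm3, as in C rats, and 4 exceeded that of Cirbp. In W rats Hspd1 alone passed an unadjusted p of 0.05 in harmonic regression, with a peak at ZT13.1 ± 1.2 h and an amplitude of 10.5% ± 3.4 (p = 0.0230, q = 0.9997), and JTK gave 0 of 9. The share of all genes at that unadjusted level was 3.05%, and 0% passed q < 0.05.

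The 3 series of W rats did not keep the same time (see the plot of the W series). In rats W33 to W38, Hspa8 rose from 112.9 fpkm at ZT1 to 194.7 fpkm at ZT9 and stood at 129.5 fpkm at ZT17, the reverse of the C rats. Fitted to these 6 rats alone, Hspa8 peaked at ZT10.1, Hsp90aa1 at ZT9.10, Hsph1 at ZT10.3 and Dnajb1 at ZT10.5. All 4 thus peaked in the light. The cold-inducible genes of the same rats peaked near lights on, Cirbp at ZT23.6 and Rbm3 at ZT0.28, and Rbm3 fell from 51.8 fpkm at ZT1 to 26.4 fpkm at ZT9, the time of its highest level in C rats. Against the peak of the C group, this is 7.44 h earlier for Hspa8, 8.65 h earlier for Cirbp and 8.48 h earlier for Rbm3.

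**Figure D2:**
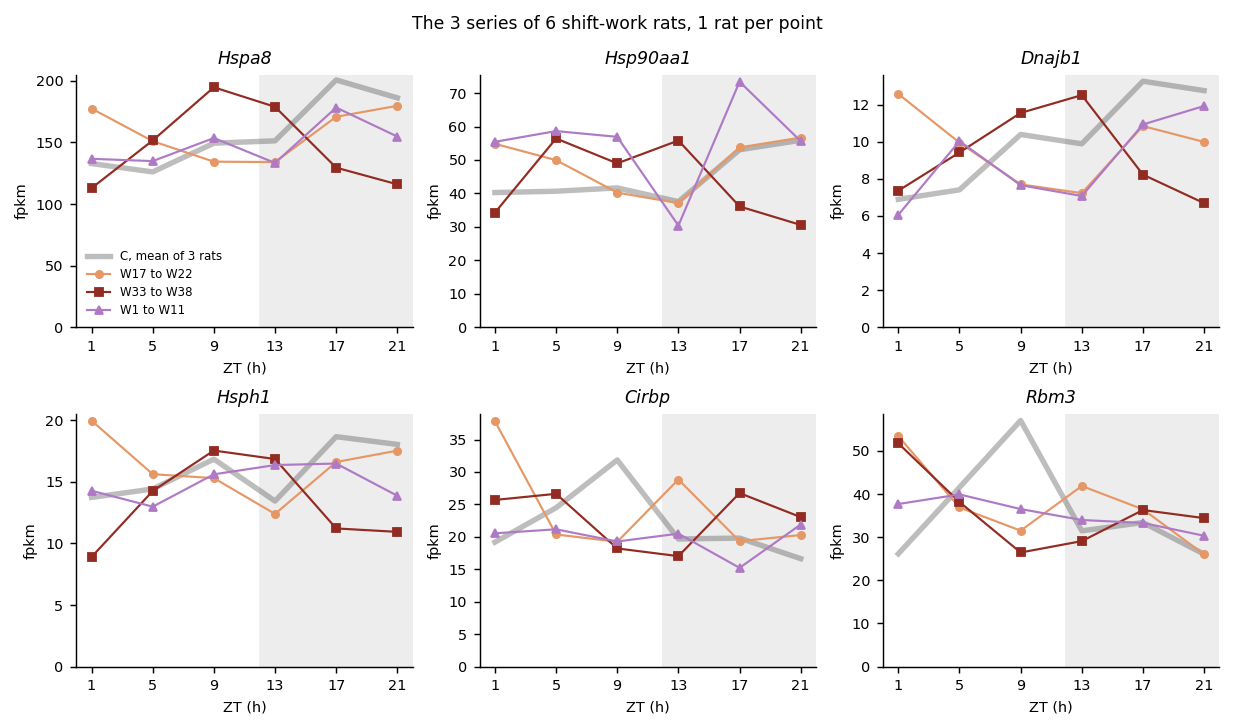
Level in fpkm (vertical axis from 0) against ZT for 6 genes in the 3 series of W rats, 1 rat per point, with the mean of 3 C rats as a thick grey line. In W33 to W38 (squares) Hspa8, Dnajb1, Hsp90aa1 and Hsph1 were high from ZT5 to ZT13 and low at ZT17 and ZT21, and Rbm3 was lowest at ZT9.

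The other 2 W series were not reversed. In W17 to W22 the 4 heat-shock genes peaked between ZT22.0 and ZT23.7, and in W1 to W11 between ZT14.2 and ZT22.7, with Hspa8 at ZT17.4. The cold genes peaked in the light in both, at ZT0.998 and ZT2.98 in W17 to W22 and at ZT3.24 and ZT5.70 in W1 to W11. In the 3 C series the cold genes peaked between ZT5.93 and ZT9.97, and 11 of 12 heat-shock peaks fell in the dark, the exception being Hsph1 in C25 to C30 at ZT11.0. These peaks rest on 6 rats each and were not tested. Without W33 to W38 the amplitude of Hspa8 over W rats was 11.2% in place of 4.15%, and that of Dnajb1 17.6% in place of 2.38%, and neither passed q < 0.05.

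The clock and hormone transcripts of the same hearts give a scale for this shift. Fkbp5, a co-chaperone of HSP90 that glucocorticoids induce, peaked at ZT18.1 in the C group and at ZT7.54 in W33 to W38, 10.6 h earlier. Arntl, an activator of the clock, peaked at ZT16.2 in W33 to W38 and 9.27 h earlier than in the C group, Per2, a clock repressor, 9.83 h earlier, and Dbp, an output gene, 7.74 h earlier. The advances of Hspa8, Cirbp and Rbm3 lay between 7.44 and 8.65 h. In W17 to W22 the cold genes led the C peak by 7.24 h for Cirbp and 5.78 h for Rbm3 while Arntl led by 1.23 h and Hspa8 lagged by 4.40 h. These 2 cold fits were shallow, with amplitudes of 0.138 of the mean for Cirbp and 0.092 for Rbm3. The highest value of both, 37.8 and 53.4 fpkm, was that of W17 at ZT1, the W library with the highest atrial sum. The peaks were not fitted without W17.

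**Figure D3:**
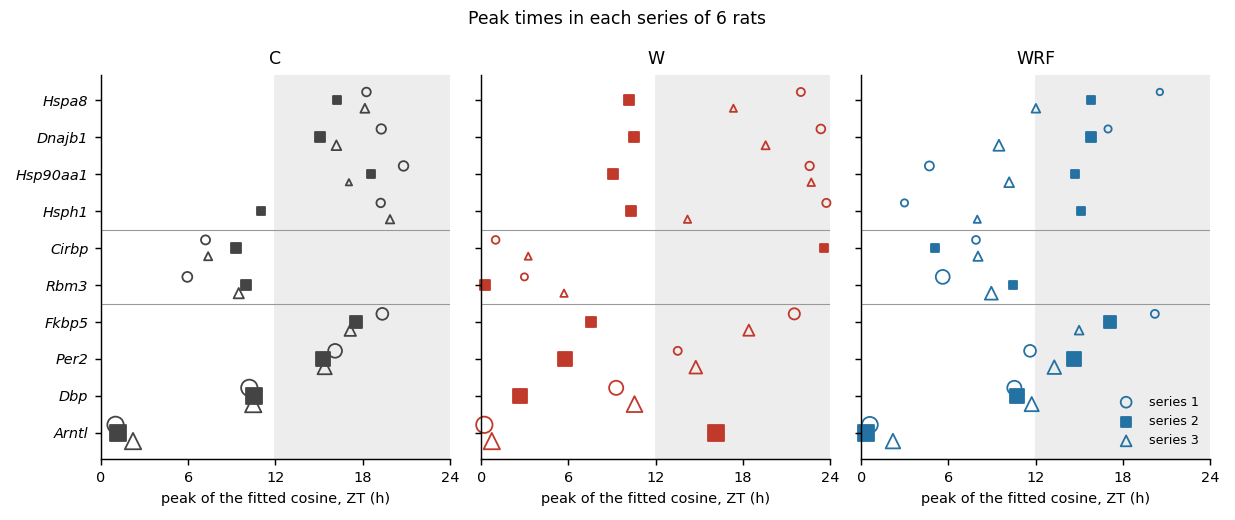
Peak of the 24 h cosine (ZT, h) fitted to each series of 6 rats in C, W and WRF rats, for 4 heat-shock genes, 2 cold-inducible genes and 4 reference genes. Marker shape gives the series, marker area grows with the relative amplitude, and the dark phase is shaded. The filled squares of the W panel (W33 to W38) lie 6.22 to 10.6 h before the C group peak for all 10 genes.

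In WRF rats Hspa8 and Dnajb1 had their highest means at ZT17 and the cold genes peaked in the light, with large scatter. Hspa8 read 182.6, 206.6 and 207.5 fpkm at ZT17 and 120.4, 128.1 and 156.0 fpkm at ZT1. These times, again those of the highest and lowest mean, did not overlap. At ZT5 and ZT9 its highest values, 216.8 and 212.5 fpkm, came from WRF62 and WRF51. Its amplitude was 12.1% ± 6.4 with a peak at ZT14.3 ± 2.0 h (SE, n = 18, p = 0.203), and 19.5% without WRF51 and WRF62 (q = 0.338). Cirbp peaked at ZT7.62 ± 1.7 h (16.9% ± 7.6, p = 0.115) and Rbm3 at ZT7.24 ± 1.8 h. The amplitude of Rbm3 was 55.2% ± 25.8 of its mean (p = 0.136), but 16.2% without WRF51 and WRF62. In WRF rats 0 of the 9 genes passed harmonic regression or JTK at an unadjusted p of 0.05, against 6.35% of all genes in harmonic regression, and 0.039% of all genes passed q < 0.05. Within the series, all 4 heat-shock genes peaked between ZT14.7 and ZT15.8 in WRF1 to WRF6, while 1 of 4 peaked in the dark in the series that holds WRF51 and 2 of 4 in the series that holds WRF62, where the peaks ran from ZT2.98 to ZT20.5. Cirbp and Rbm3 peaked between ZT5.05 and ZT10.4 in all 3 WRF series. WRF62 (ZT5) and WRF51 (ZT9) had the highest Rbm3 of their series, at 204.9 and 162.1 fpkm. WRF51 also had the highest Cirbp of its series, at 38.8 fpkm. Peaks of these series were not fitted without the 2 libraries.

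A rhythm common to the 3 groups was fitted with limma. It gave 4 of 9 genes an unadjusted p under 0.05, where 9.41% of all genes had one, and 0 of 9 an adjusted p under 0.05, where 0.799% did. Rbm3 came first, with a shared amplitude of 0.35 ± 0.09 on the log2 scale (SE) and a peak at ZT7.70 ± 1.0 h (p = 0.00204, limma adjusted p = 0.149). Hspa8 peaked at ZT16.0 ± 1.1 h (0.17 ± 0.05, adjusted p = 0.2198), Cirbp at ZT6.86 ± 1.2 h (0.19 ± 0.06, adjusted p = 0.288) and Dnajb1 at ZT15.2 ± 1.5 h (0.19 ± 0.08, adjusted p = 0.530). The shared peak of Rbm3 thus fell in the light and that of Hspa8 in the dark. Without WRF51, WRF62 and W21 the shared rhythm of Hspa8 passed the test, and without W33 to W38 that of Rbm3 did.

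Differences of rhythm between the groups were tested in the same model. Of all genes, 0% passed in W against C, 0% in WRF against C and 0% in WRF against W. Cirbp had the lowest p of the set in W against C (p = 0.00535, limma adjusted p = 0.9999), followed by Hspa8 (p = 0.0468), and 1.83% of all genes had an unadjusted p under 0.05 there. In WRF against W only Rbm3 was under 0.05 (p = 0.0333, limma adjusted p = 0.539), and in WRF against C 0 of 9 were. The share of all genes at that unadjusted level was not taken for these 2 contrasts. The flat averages of the W group were therefore not shown to differ from the rhythms of C rats after adjustment.

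Levels over the whole day were compared next. These are bulk hearts, in which fewer cells of a kind and less RNA per cell cannot be told apart. By the study's own test (Kruskal-Wallis over the 3 groups), 0 of the 9 genes were called, against 9.17% of all genes. Hspe1 and Rbm3, 2 of 9 (22.2%), had an unadjusted p under 0.05 in it. The study reports a larger share of all genes at that unadjusted level. The limma F test over the groups also called 0. W and C rats did not differ in limma at an unadjusted p under 0.05 for any of the 9 genes, and 0% of all genes passed after adjustment. In WRF against C, limma called 1 of 9 genes (11.1%), Hspe1, where 12.9% of all genes were called and 11.3% were called higher in WRF rats. In WRF against W it called 0 of 9, where 14.3% of all genes were called. The share of members was thus at or under the background in each comparison. The 3 contrasts share rats, since each group serves in 2 of them.

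**Figure D4:**
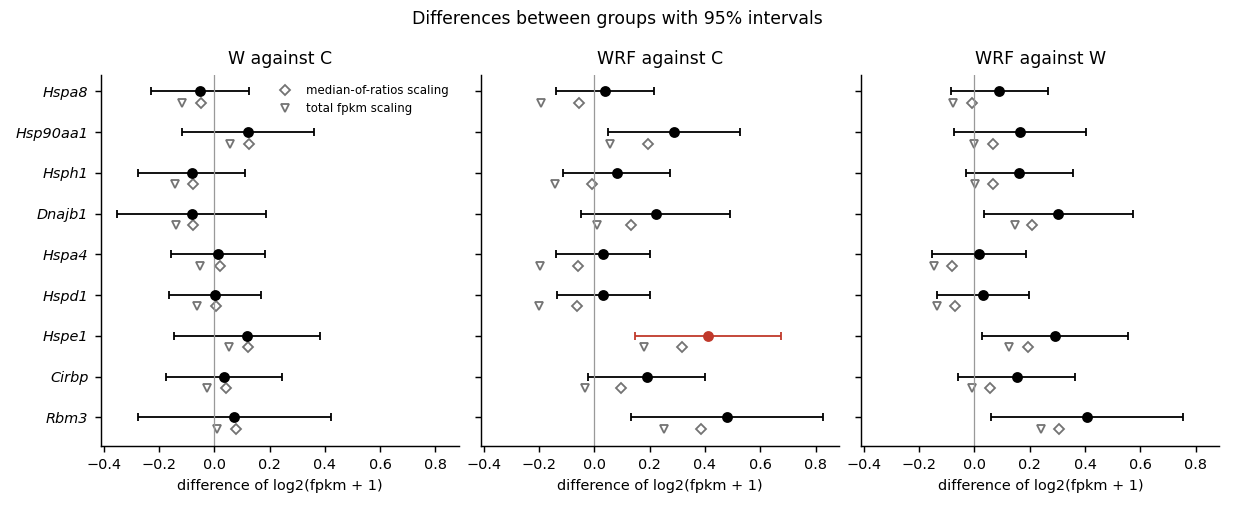
Difference of log2(fpkm + 1) between groups for the 9 genes (filled circles with 95% intervals, limma), with the difference after median-of-ratios scaling (diamonds) and after scaling to the total fpkm (triangles). Hspe1 in WRF against C (red) is the difference called, and the scaled values of WRF rats lie to the left of the circles.

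Hspe1 read 105.1 fpkm at the lowest, 151.0 fpkm at the median and 258.8 fpkm at the highest in C rats. The same 3 values were 120.5, 145.2 and 297.2 fpkm in W rats and 93.7, 224.2 and 312.4 fpkm in WRF rats. The groups overlapped, with 14 of 18 WRF rats above the C median. WRF rats were higher than C rats by 0.41 ± 0.13 on the log2(fpkm + 1) scale (SE, limma adjusted p = 0.0365). The lowest WRF value was that of WRF51, and without WRF51, WRF62 and W21 the difference was 0.52 (limma adjusted p = 0.00806).

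The Hspe1 difference also depended on the series and the scaling. Median levels were 161.8, 127.0 and 172.9 fpkm in the 3 C series, 134.4, 137.8 and 239.1 fpkm in the W series and 155.3, 289.1 and 204.1 fpkm in the WRF series (see the plot of the chaperonin pair). The series W1 to W11 and WRF1 to WRF6 were the highest. Without WRF1 to WRF6 the difference was 0.18 and was not called (limma adjusted p = 0.310), and without C25 to C30 it was 0.27 (adjusted p = 0.265). Over all genes the median difference of WRF against C was 0.08 as deposited, -0.00 after median-of-ratios scaling and -0.12 after scaling to the total fpkm. Hspe1 stayed above that median under each, at 0.32 and 0.18 after the 2 scalings, with adjusted p of 0.193 and 0.406.

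Hspd1 was not called. It read 122.2, 146.6 and 171.8 fpkm (lowest, median and highest) in C rats, 109.3, 146.9 and 179.1 fpkm in W rats and 61.4, 163.3 and 183.3 fpkm in WRF rats, where WRF51 was the lowest. WRF and C rats differed by 0.03 ± 0.09 (SE, limma adjusted p = 0.817, 95% interval -0.13 to 0.20). Without WRF51 the difference was 0.11 (adjusted p = 0.256), and without WRF51, WRF62 and W21 it was 0.13 (adjusted p = 0.135). Within a rat, where scaling cancels, Hspe1 over Hspd1 had a median of 1.02 in C rats (range 0.79 to 1.51), 1.05 in W rats (0.82 to 1.88) and 1.302 in WRF rats (0.99 to 2.12). The log2 ratio was higher in WRF than in C rats by 0.38 ± 0.10 (2-sided permutation test of 100000 resamples, p = 0.000860, adjusted over 3 contrasts p = 0.00258), and by 0.39 without WRF51, WRF62 and W21. This ratio was chosen after the levels had been seen. Its series medians ran from 0.84 to 1.18 in C rats, 0.95 to 1.61 in W rats and 1.16 to 1.76 in WRF rats, so that series of different groups overlapped. WRF1 to WRF6 had 1.76 and C25 to C30 had 0.84. The other WRF series had 1.16 and 1.27, near the 1.17 and 1.18 of the other C series. The permutations did not keep rats within their series, and the ratio was not tested without single series. W and C rats differed by 0.12 ± 0.11 (permutation p = 0.307). WRF and W rats differed by 0.26 ± 0.12, which did not pass after adjustment (permutation p = 0.0377, adjusted p = 0.0566).

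**Figure D5:**
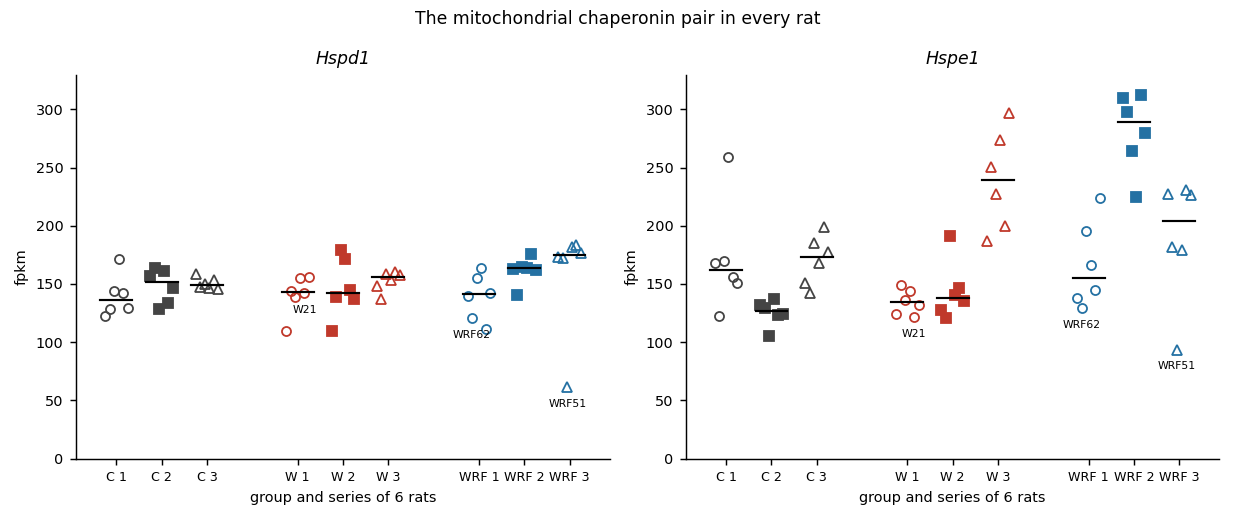
Level of Hspd1 and Hspe1 in every rat (fpkm, vertical axis from 0) by group and series of 6 rats. Horizontal lines are medians, and the libraries that stood apart are named. Hspd1 medians lie between 135.8 and 174.9 fpkm in all series, while those of Hspe1 run from 127.0 to 289.1 fpkm.

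Rbm3 had the largest difference in mean log2 level between WRF and C rats in the set, and 2 libraries set much of its size. It read 21.05, 32.8 and 74.9 fpkm (lowest, median and highest) in C rats, 26.0005, 36.4 and 53.4 fpkm in W rats and 25.2, 41.9 and 204.9 fpkm in WRF rats. The top 2 WRF values, 204.9 fpkm in WRF62 and 162.1 fpkm in WRF51, were 4.95 and 3.91 times the median of the other WRF rats, whose highest value was 54.2 fpkm. Still, 15 of 18 WRF rats were above the C median, and the medians differed 1.28-fold. In the means, WRF exceeded C rats by 0.48 ± 0.18 (SE, limma adjusted p = 0.0598), and by 0.24 without WRF51, WRF62 and W21 (adjusted p = 0.190). Without WRF1 to WRF6, the series that carried the Hspe1 difference, Rbm3 differed by 0.66 and was called (limma adjusted p = 0.00789), as were Cirbp (0.33, adjusted p = 0.0219) and Dnajb1 (0.36, adjusted p = 0.0493). That fit still held WRF51 and WRF62, and the share of all genes called in it was not taken. Cirbp read 12.5, 20.2 and 38.3 fpkm in C rats, 15.2, 20.5 and 37.8 fpkm in W rats and 16.9, 23.2 and 38.8 fpkm in WRF rats, and differed by 0.19 ± 0.11 (SE, limma adjusted p = 0.218).

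Hsp90aa1 and Dnajb1 also moved with WRF51 and WRF62. Hsp90aa1 read 26.3, 41.6 and 69.3 fpkm (lowest, median and highest) in C rats, 30.4, 54.3 and 73.4 fpkm in W rats and 36.8, 48.2 and 106.7 fpkm in WRF rats. WRF62 and WRF51, at 106.7 and 102.6 fpkm, were above all other rats. Its difference in WRF against C was 0.29 ± 0.12 (SE, limma adjusted p = 0.0956), or 0.17 without them and W21 (adjusted p = 0.276). Dnajb1 had medians of 9.56, 9.69 and 11.1 fpkm in C, W and WRF rats, and its highest WRF values were 24.8 fpkm in WRF44 at ZT17, 23.8 fpkm in WRF51 and 22.98 fpkm in WRF62. Its difference of 0.22 ± 0.14 (SE) was 0.10 without them. The medians of Hspa8 (149.4, 151.3 and 160.4 fpkm in C, W and WRF rats), Hsph1 (14.9, 15.5 and 15.2 fpkm) and Hspa4 (30.5, 31.6 and 30.5 fpkm) lay closer together, with differences in WRF against C of 0.04 ± 0.09, 0.08 ± 0.10 and 0.03 ± 0.09 (SE), or -0.02, 0.03 and -0.02 without WRF51, WRF62 and W21. All 7 heat-shock genes had a positive difference in WRF against C as deposited, with a median of 0.08 equal to that of all genes, 3 of 7 had one after either scaling, and 5 of 7 without WRF51, WRF62 and W21.

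Across all rats of a group, Hspa8, Hsp90aa1, Hsph1 and Dnajb1 were correlated by Pearson r, and so were the cold genes. Of the 36 pairs in each group, 9 (C rats), 12 (W rats) and 22 (WRF rats) had a Pearson correlation of log2(fpkm + 1) with a permutation p under 0.05 after adjustment over all pairs and groups. All 6 pairs among Hspa8, Hsp90aa1, Hsph1 and Dnajb1 were called in each group by Pearson r. By the adjusted permutation p of Spearman rho, a rank correlation, fewer of them were called. Hspa8 with Dnajb1 passed in each group and was the only one of them to pass in C rats. Hsp90aa1 with Dnajb1 passed in none (adjusted permutation p for rho of 0.0681, 0.111 and 0.0681 in C, W and WRF rats). Hspa4 and Hspa8 had r = -0.02 in C rats, which was not called. The 43 called pairs became 22 without WRF51, WRF62 and W21. In WRF rats those still called were Hspa8 with Hsph1 and with Dnajb1, Hsp90aa1 with Hspa4, and Hspe1 with Cirbp. In W rats Hsp90aa1 with Hsph1 and Hsph1 with Dnajb1 were among those lost. The share of called pairs among other genes was not counted, and time of day and library composition were not removed. The counts therefore do not show that these genes move together more than others. Within a series each time has 1 rat, so that rat and time cannot be told apart there. Hspa8 and Dnajb1 correlated at r = 0.88 in C rats (rho = 0.84, permutation p = 1e-05, the smallest that 100000 resamples can give, and 3e-05), 0.80 in W rats (rho = 0.77, permutation p = 0.00011 and 0.0003) and 0.89 in WRF rats (rho = 0.90, permutation p = 1e-05 for both). Adjusted, these p were 0.00027, 0.00162 and 0.00027 for r. Without the 2 rats farthest from the Hspa8 median, r was 0.85, 0.77 and 0.87.

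Cirbp and Rbm3 correlated at r = 0.81 in C rats (rho = 0.68, permutation p = 3e-05 and 0.00215), 0.71 in W rats (rho = 0.68, p = 0.00091 and 0.00268 by permutation) and 0.68 in WRF rats (rho = 0.69, permutation p = 0.00101 and 0.00209). Adjusted p for r were 0.00054, 0.00682 and 0.00682, and r was 0.66, 0.52 and 0.60 without the 2 farthest rats. Without WRF51 and WRF62 the pair was not called in WRF rats (r = 0.60, adjusted permutation p = 0.0626). Hspa8 and Cirbp, which peak at opposite times in C rats, were not called as opposed from rat to rat. They had r = -0.13 in C rats (rho = -0.17, permutation p = 0.597 and 0.492), -0.31 in W rats (rho = -0.54, permutation p = 0.214 and 0.0221) and 0.35 in WRF rats (rho = 0.25, permutation p = 0.159 and 0.321), none with an adjusted p under 0.05.

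Chaperonin and cold genes correlated negatively in the working groups. Both pairs of Hspd1 with a cold gene were called in W rats, and all 4 chaperonin and cold pairs in WRF rats, of which 1, Hspe1 with Cirbp, was called without WRF51 and WRF62. Hspd1 and Rbm3 had r = -0.84 in W rats (rho = -0.68, permutation p = 0.00012 and 0.00248, adjusted 0.00162 for r), and -0.61 without the 2 farthest rats. Hspe1 and Cirbp had r = -0.85 in WRF rats (rho = -0.79, permutation p = 1e-05 and 0.00012, adjusted 0.00027 for r), and -0.78 without WRF51 and WRF62. The first pair had r = -0.65 in WRF rats (rho = -0.14, permutation p = 0.0169 and 0.573, adjusted 0.0435 for r) and 0.04 without WRF51 and WRF62, the second r = -0.37 in W rats, and in C rats the pairs had r = -0.38 and -0.04. Whether the groups differ in these correlations was not tested. In WRF rats the series medians of Hspe1 and Cirbp also ran in opposite order. WRF1 to WRF6 had the highest Hspe1 median (289.1 fpkm) and the lowest of Cirbp (19.9 fpkm). The series that holds WRF62 had the lowest Hspe1 median (155.3 fpkm) and the highest of Cirbp (30.7 fpkm). The permutations did not keep rats within their series, so opposition between series and between rats cannot be told apart. Hspd1 and Hspe1, despite their shared promoter region, had r = 0.40 in C rats (rho = 0.30, permutation p = 0.102 and 0.234) and 0.43 in W rats (rho = 0.51, permutation p = 0.0762 and 0.0325). Their r of 0.71 in WRF rats (rho = 0.48, permutation p = 0.00138 and 0.0447) was 0.38 without WRF51 and WRF62. Without the 2 rats farthest from the Hspd1 median, the r of C rats was 0.32, that of W rats 0.28 and that of WRF rats 0.40.

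The genes most like each member were taken over 51 rats, without WRF51, WRF62 and W21, after removal of the group means, from 6294 entries with a mean of at least 5 fpkm. For Hspa8 they were Dnajb1 (r = 0.84), Dnaja1 (0.84) and Hsp90ab1 (0.81), all chaperones of the cytosol. For Dnajb1 they were Hspa8 (0.84), Dnaja1 (0.82) and Rsrp1 (0.82), for Hsp90aa1 Dnaja1 (0.78), the HSP90 co-chaperone Ptges3 (0.74) and Ccar1 (0.74), and for Hsph1 the HSP70 to HSP90 adaptor Stip1 (0.87) and Fhl1 (0.84). Hspa4 was closest to Rhoq (0.93), Arcn1 (0.93) and Pja2 (0.92), which are not chaperones. Hspd1 was closest to Sucla2 (0.89), Pdhb (0.87) and Dlst (0.83), enzymes of the citric acid cycle and of pyruvate oxidation. Hspe1 was closest to Dnajc19 (0.90), Uqcrb (0.85) and Ndufb4 (0.84), of the mitochondrial import motor and respiratory chain. The nearest genes of the cold-inducible pair were Kat5 (0.78), Patz1 (0.78) and Ldb1 (0.77) for Cirbp and Sfr1 (0.81), H3f3b (0.78) and Tceal8 (0.75) for Rbm3. Hspd1 and Hspe1 thus each had mitochondrial genes among their 3 nearest, but not each other. These are correlations over rats that share time of day and library composition, given as a description.

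Other chaperone genes, listed by name, were read in the same fits. Of 35 DNAJ and other co-chaperones of HSP70 and HSP90, limma called 5 higher and 0 lower in WRF rats when set against C. Their median difference was 0.05, that of all genes 0.08. The 5 of 35 (14.3%) compare with 11.3% of all genes called higher. Without WRF51, WRF62 and W21, 3 were called, where 9.28% of all genes were called higher. After either scaling 0 were called, where 601 (median-of-ratios) and 53 (total fpkm) of all 10257 genes were called higher. They were Dnajc2 (0.25 ± 0.08), Dnajc8 (0.22 ± 0.06), Bag1 (0.22 ± 0.06), Hspbp1 (0.33 ± 0.10) and Ahsa1 (0.20 ± 0.06), with limma adjusted p from 0.0132 to 0.0427. Dnajb5 and Fkbp5 were rhythmic in C rats. Dnajb5, an HSP40 gene, peaked at ZT19.9 with an amplitude of 23.8% (q = 0.0311) and Fkbp5 at ZT18.1 with 53.3% (q = 0.0283). Fkbp5 also passed the shared rhythm (limma adjusted p = 0.0196).

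Among 12 subunits of the cytosolic chaperonin CCT and of prefoldin, which fold actin and tubulin, limma called 8 higher and 0 lower in WRF rats when set against C, against 11.3% of all genes called higher, and their median difference was 0.20 against 0.08 over all genes. The largest were Pfdn5 (0.42 ± 0.10, SE, adjusted p = 0.00559), Pfdn1 (0.28 ± 0.07, adjusted p = 0.00852) and Cct5 (0.25 ± 0.06, adjusted p = 0.00557). Without WRF51, WRF62 and W21 limma called 6 of the 12, against 9.28% of all genes called higher. After median-of-ratios scaling 2 of the 12 were called and the median was 0.10, where 601 of all 10257 genes were called higher. After scaling to the total fpkm 0 were called with a median of -0.03, where 53 of all genes were called higher. None of these 12 was rhythmic at an unadjusted p of 0.05 in any group by harmonic regression.

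In the remaining lists few genes passed. Of 9 further HSP70, HSP90 and HSP110 genes 0 were called in either direction by limma in WRF against C. The inducible HSP70 gene Hspa1a, at a median of 1.45 fpkm in C rats, peaked at ZT17.8 in them with an amplitude of 56.0% (p = 0.0132, q = 0.487). Of 8 small heat-shock proteins 0 were called, with a median difference of -0.23 and values of 0.39 ± 0.17 for Hspb1 and -0.25 ± 0.21 for Cryab (SE), although 13 of 18 WRF rats were above the C median of Cryab. This negative median went with the libraries that stood apart: it was -0.03 without WRF51 and 0.10 without WRF51, WRF62 and W21. In the latter fit Cryab differed by 0.10 and Hspb1 was called (0.49, limma adjusted p = 0.0379), where 9.28% of all genes were called higher. Of 14 mitochondrial chaperones and proteases, limma called 1, Hscb (0.28 ± 0.09, SE, adjusted p = 0.0241), a co-chaperone of iron-sulfur cluster assembly, higher in WRF rats, which was lost without WRF51, WRF62 and W21 (adjusted p = 0.0693). In W rats 5 of these 14 had an unadjusted p under 0.05 for rhythm, where 3.05% of all genes had one, such as Trap1, the mitochondrial HSP90, with a peak at ZT12.1 (p = 0.00444, q = 0.9997), near the ZT13.1 peak of Hspd1. Of 6 heat-shock factors and regulators 0 were called, and Hsf1 differed by 0.05 ± 0.06 (SE) between WRF and C rats.

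CLK kinases and SR proteins, splicing regulators of which the CLKs respond to body temperature, were included because they share its daily course. Of 22 listed, limma called 0 between WRF and C rats, and 1, Clk4, lower in WRF rats without WRF51, WRF62 and W21 (limma adjusted p = 0.0394). Of all 10257 genes, 161 were called lower without those libraries. Hnrnpdl and Rbmx, RNA-binding proteins like Cirbp and Rbm3, passed the shared rhythm, with peaks at ZT7.85 ± 0.79 h (limma adjusted p = 0.0124) and ZT7.68 ± 0.81 h (adjusted p = 0.0168). The shared peak of Rbm3 was at ZT7.70 and that of Cirbp at ZT6.86.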

How the data were processed

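The deposited table holds FPKM values of 54 rats, 1 column per rat, with 0 columns left out. Per the study's methods and the submitters' processing notes, the authors aligned directional polyA reads to rn6 with TopHat2, keeping 1 alignment per read, estimated expression with Cufflinks and kept genes above 1 fpkm in at least 18 rats; versions and the annotation were not given in the sources used here. FPKM keep no read numbers, so the depth of a library could not be taken from the values (the study lists read numbers, not used here) and no counting interval was given. The values were not rescaled in the results as reported.

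Group and time came from the titles. For 12 WRF rats another label gives another time, used as an alternative. For WRF42, WRF46 and WRF51 among them, the study's methods give the time of the title. The labels give no batch, and p-values measure the spread between rats. Rat numbers that recur between groups were not taken as pairs.

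Kruskal-Wallis tests (q at most 0.05), a 24 h cosine fitted to fpkm by harmonic regression (q under 0.05) and JTK were run in scipy 1.17.1 and numpy 2.4.6, and limma 3.58.1 in R 4.3.3 on log2(fpkm + 1) gave differences, SE and adjusted p (Benjamini-Hochberg, all genes), so a difference understates the change of a low gene. The 95% intervals use the normal approximation. Fits were tested on simulated data. Promoters are RefSeq windows on GRCr8, whose coordinates are not those of rn6. The members and lists were chosen with earlier results of these data known. Named besides the 9 members are the genes of each list that pass a test of the table (otherwise up to 3 with the smallest p), genes used as a reference for phase, cell type markers and the 3 genes most like each member, of which 1 is not reported here; Hspa1a, Cryab, Hsf1 and Trap1 were named after their values were seen.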

Additional observations from a re-analysis of the deposited data

How the results depend on the processing

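FPKM values without counts limit what can be said of low genes, and 18 rats per group spread over 6 times limit the power for rhythms. No difference or amplitude that passed a test changed direction, and 45 of 504 differences of members changed sign under an alternative without passing a test in either. The cause of the changes below was not tested.

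Kruskal-Wallis called 0 of the 9 genes, and 1 without WRF51, WRF62 and W21 (Hspe1). Over the series left out in turn it called 0 to 1, Hspe1 without C33 to C38 or W1 to W11 and Rbm3 without WRF1 to WRF6. The limma count in WRF against C was 1 as reported, 0 after either scaling, 2 with genes of a mean of at least 5 fpkm and 2 with times as a factor (Hspe1 and Rbm3), and 0 to 3 without single series, the 3 being Dnajb1, Cirbp and Rbm3 without WRF1 to WRF6. In WRF against W it was 0, and 0 to 3 without single series, with Hspe1 called without W1 to W11 and the same 3 genes as above without WRF1 to WRF6. The fits without WRF1 to WRF6 still held WRF51 and WRF62. Shares of all genes called without single series were not taken. Rhythmic in C rats were 0 genes as reported, 1 on the log2 scale (Hspa8), 3 after median-of-ratios scaling, 1 after scaling to the total fpkm, 1 with the filter at 5 fpkm and 0 to 1 without single series. The shared rhythm gave 0, 1 after median-of-ratios scaling and 2 after scaling to the total fpkm (Cirbp and Rbm3), 1 without WRF51, WRF62 and W21, 1 without WRF62, and 0 to 1 without single series. Correlations called fell from 43 to 22 without the 3 libraries, a setting chosen after seeing the data, as were the values of the chaperone lists without those libraries. The counts in W and WRF rats and of differing rhythms stayed at 0 under all alternatives run, the label times of WRF rats and JTK included.

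The replicate block over the 12 shared numbers left W against C at 0 of 9 genes called, as did the same 24 rats without the block, an alternative chosen after seeing the data. Same-numbered C and W rats, which were also killed at the same ZT, correlated at -0.08 to 0.57, 6 of 12 above 0.1. Whether they share more than number and time cannot be told from these values. Of the 12 C rats, 1 correlated best with the W rat of its own number.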
